A study of Mus musculus with 12 samples.

Results

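The genes described here are the 35 genes that encode the mouse Wnt ligands, their Frizzled receptors, the co-receptors Lrp5 and Lrp6 and the R-spondins, out of 49585 genes counted in each library. They were defined by gene symbol, after the Ensembl identifiers of the count tables had been matched to symbols, and comprise 19 Wnt ligands, 10 Frizzleds, 2 co-receptors and 4 R-spondins. Their transcripts were followed in 12 bulk RNA-seq libraries from 4 stromal populations, with 3 libraries for each population and 2000 sorted cells for each library. All cells came from untreated wild-type C57BL/6 male mice aged 8 to 10 weeks, and all were sorted as CD45-, Ter119- and CD31-.

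The first population, Itga8+ MSCs, was Itga8+, Alcam+ and Sca-1-. The Itga8- Alcam+ bone-lining cells (BLCs), labelled as osteoblasts, were Itga8-, Alcam+ and Sca-1-. Sca-1+ MSCs were Alcam- and Sca-1+, and the fourth population, CD51+CD140a+ MSCs, was sorted on these antigens. The first 3 came from bone fragments digested with collagenase after the marrow had been flushed out, whereas CD51+CD140a+ MSCs came from the flushed marrow itself, digested with Accumax, so that for the comparisons with CD51+CD140a+ MSCs the tissue preparation and the population cannot be told apart. The labels do not say whether the 3 libraries of a population came from separate mice, so p-values measure the spread between these libraries.

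Wnt proteins are lipid-modified secreted ligands that bind Frizzled receptors. Together with Lrp5 or Lrp6, Frizzleds stabilise β-catenin, and with other partners they act through β-catenin-independent routes. R-spondins bind Lgr receptors and remove the ubiquitin ligases Rnf43 and Znrf3 from the cell surface, which leaves more Frizzled there. In bone this pathway is known for its control of osteoblast formation and bone mass.

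Of the 29 members tested, 7 were higher in a single population than in each of the other 3. The thresholds were an FDR under 0.1 and a change of more than 2-fold. The 7 were Wnt2, Wnt9a, Rspo1, Fzd1, Fzd5, Rspo2 and Rspo3, and 9.45% of the 18648 genes tested had this pattern. Sca-1+ MSCs were the highest population for 3 of these members and CD51+CD140a+ MSCs for 4, against 2.75% and 5.11% of all genes. Without Sca-1+ MSC replicate 3, Wnt9a and Rspo1 were no longer called against Itga8+ MSCs, nor Fzd1 between Sca-1+ and CD51+CD140a+ MSCs. These 3 members then lacked the pattern. Of the 7, Wnt2, Wnt9a, Rspo1, Fzd1 and Fzd5 have a window in the RefSeq promoter table. Their upstream sequences are shown so that the regions next to genes highest in different populations can be set side by side. They were taken from the RefSeq table, with build GRCm38, and cover the bases before the start site that lie outside the GENCODE gene model, written 5′ to 3′ on the strand of the gene. Capitals mark matches, on either strand, to the GC box GGGCGG, the TCF/LEF motif CTTTGA or the RUNX motif TGTGGT. Wnt2 (chr6:18030586-18030695, minus strand), Wnt9a (chr11:59306680-59306927, plus strand) and Rspo1 (chr4:124986180-124986429, plus strand) were highest in Sca-1+ MSCs. Fzd1 (chr5:4758217-4758466, minus strand) and Fzd5 (chr1:64737752-64738000, minus strand) were highest in CD51+CD140a+ MSCs.
Wnt2: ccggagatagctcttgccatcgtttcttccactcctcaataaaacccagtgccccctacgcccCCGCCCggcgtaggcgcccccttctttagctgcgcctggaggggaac
Wnt9a: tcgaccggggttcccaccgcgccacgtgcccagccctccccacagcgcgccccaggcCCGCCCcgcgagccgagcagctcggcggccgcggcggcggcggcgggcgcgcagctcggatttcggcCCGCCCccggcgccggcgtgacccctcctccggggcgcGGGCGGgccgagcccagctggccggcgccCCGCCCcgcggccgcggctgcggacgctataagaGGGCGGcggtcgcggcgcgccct
Rspo1: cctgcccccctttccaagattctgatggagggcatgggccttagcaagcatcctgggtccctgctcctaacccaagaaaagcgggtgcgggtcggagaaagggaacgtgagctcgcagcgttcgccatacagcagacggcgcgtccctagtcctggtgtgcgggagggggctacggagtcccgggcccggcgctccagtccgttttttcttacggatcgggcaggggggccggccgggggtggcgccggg
Fzd1: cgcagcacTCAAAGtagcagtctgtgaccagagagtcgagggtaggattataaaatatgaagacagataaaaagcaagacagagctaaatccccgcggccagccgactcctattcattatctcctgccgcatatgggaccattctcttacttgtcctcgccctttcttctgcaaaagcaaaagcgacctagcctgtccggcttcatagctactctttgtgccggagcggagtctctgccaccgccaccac
Fzd5: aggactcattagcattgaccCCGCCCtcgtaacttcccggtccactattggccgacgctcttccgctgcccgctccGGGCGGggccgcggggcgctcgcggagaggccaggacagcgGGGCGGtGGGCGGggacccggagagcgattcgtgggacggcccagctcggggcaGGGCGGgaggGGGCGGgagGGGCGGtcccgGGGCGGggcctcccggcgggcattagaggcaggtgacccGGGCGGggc

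The sequences of genes highest in Sca-1+ and in CD51+CD140a+ MSCs overlapped in base composition. Composition and matches were taken over the 250 bases before the start, of which 110 are printed for Wnt2, 248 for Wnt9a and 249 for Fzd5. G and C made up 63.6% of these bases for Wnt2, 84.4% for Wnt9a, 66.8% for Rspo1, 51.2% for Fzd1 and 76.4% for Fzd5. The median over the same bases was 52.4% in 32817 RefSeq windows. GC boxes were found 9 times upstream of Fzd5 and 5 times upstream of Wnt9a, once upstream of Wnt2 and not upstream of the others, and 32.7% of all windows held at least 1. The TCF/LEF motif, present in 13.8% of all windows, was found once, 242 bases upstream of the start of Fzd1. No RUNX match was found in any of the 5, whereas 14% of all windows held one. A match is a run of letters and not a measured binding site.

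Among the 19 Wnt ligands, 13 had at least 0.5 CPM (counts scaled to a common library size with TMM factors) in at least 1 library and were tested, as were all 10 Frizzleds, both co-receptors and all 4 R-spondins. Wnt3a, Wnt7a and Wnt9b had no count in any of the 12 libraries, Wnt8a had a single count in 1 Itga8+ MSC library, and Wnt3 had 3 counts in 1 CD51+CD140a+ MSC library. These 5 genes were at or under 3 counts throughout, the floor used here, which stood for 0.082 to 0.18 CPM depending on the library and covers counting error only. Wnt8b was over the floor only in Itga8- Alcam+ BLCs, with 0, 4 and 6 counts, and was not tested.

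CD51+CD140a+ MSCs had the narrowest set of members above the floor. All 3 of their libraries were at or under 3 counts for 13 members, of which 11 were Wnt ligands and the others Fzd10 and Rspo1, against 6 members in Itga8+ MSCs, 6 for Itga8- Alcam+ BLCs and 7 for Sca-1+ MSCs, all of them Wnt ligands. The ligands at the floor in CD51+CD140a+ MSCs but not in the other 3 populations were Wnt1, Wnt2, Wnt7b, Wnt10a and Wnt10b, of which Wnt7b was over it in only 1 Sca-1+ MSC library and Wnt2 in only 1 Itga8- Alcam+ BLC library. The CD51+CD140a+ MSC libraries were the deepest, with up to 31332475 counts against a lowest total of 17580677 in an Itga8+ MSC library. Genes with a count numbered 18753 to 20163 in them and 18434 to 20559 in the other libraries. The share of all genes at the floor in each population was not computed. Conversely, 17 members were over 3 counts in every library. In bulk samples such as these, fewer cells that carry a transcript and less of it per cell cannot be told apart.

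A member was called where edgeR's quasi-likelihood test, fitted to all 12 libraries and 18648 genes, gave a Benjamini-Hochberg FDR under 0.1 together with a change of more than 2-fold. The 6 pairwise comparisons share libraries and are not independent of each other. A gene that passed the filter through only 1 population was bound to be higher there, so the counts of calls describe the 29 tested members and are not evidence for them as a set. Itga8+ MSCs and Itga8- Alcam+ BLCs did not differ in any tested member by this rule, where 1.66% of all genes were higher in Itga8+ MSCs and 2.16% were higher in Itga8- Alcam+ BLCs. DESeq2 and limma-trend likewise gave 0 calls, and an unadjusted p under 0.05 was reached by 6 members with edgeR, 7 with DESeq2 and 6 with limma-trend. Without Itga8+ MSC replicate 2 there was 1 call, Fzd1, which was higher in Itga8+ MSCs by a log2 fold change of 2.49 (FDR = 0.0269).

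Between Itga8+ MSCs and Sca-1+ MSCs, 9 members were higher in the former and 7 in the latter, against 12.9% and 8.89% of all genes. Between Itga8+ MSCs and CD51+CD140a+ MSCs, 13 members were higher in the former and 6 in the latter, against 21.2% and 14.3% of all genes. Itga8- Alcam+ BLCs had 7 members higher and 6 lower than Sca-1+ MSCs (14.5% and 11.9% of all genes), and 10 higher and 5 lower than CD51+CD140a+ MSCs (20.4% and 14.9%). Sca-1+ MSCs had 9 members higher and 8 lower than CD51+CD140a+ MSCs (11.2% and 9.3%). The median fitted log2 fold change over the tested members was 0.08, 0.16, 1.33, -0.06, 0.83 and 0.44 for the 6 comparisons in the order given, whereas the median over all genes stayed between -0.00 and 0.18. With the 6 members that had no count in CD51+CD140a+ MSCs set to their lower bound, the medians against that population were 1.31, 0.83 and 0.21. Wnt2b, Wnt5a, Fzd2, Fzd7, Fzd8 and Lrp5 were called in none of the 6 comparisons by edgeR with all libraries, and of these Wnt5a, Fzd8 and Lrp5 were called by DESeq2, as given below.

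**Figure D1:**
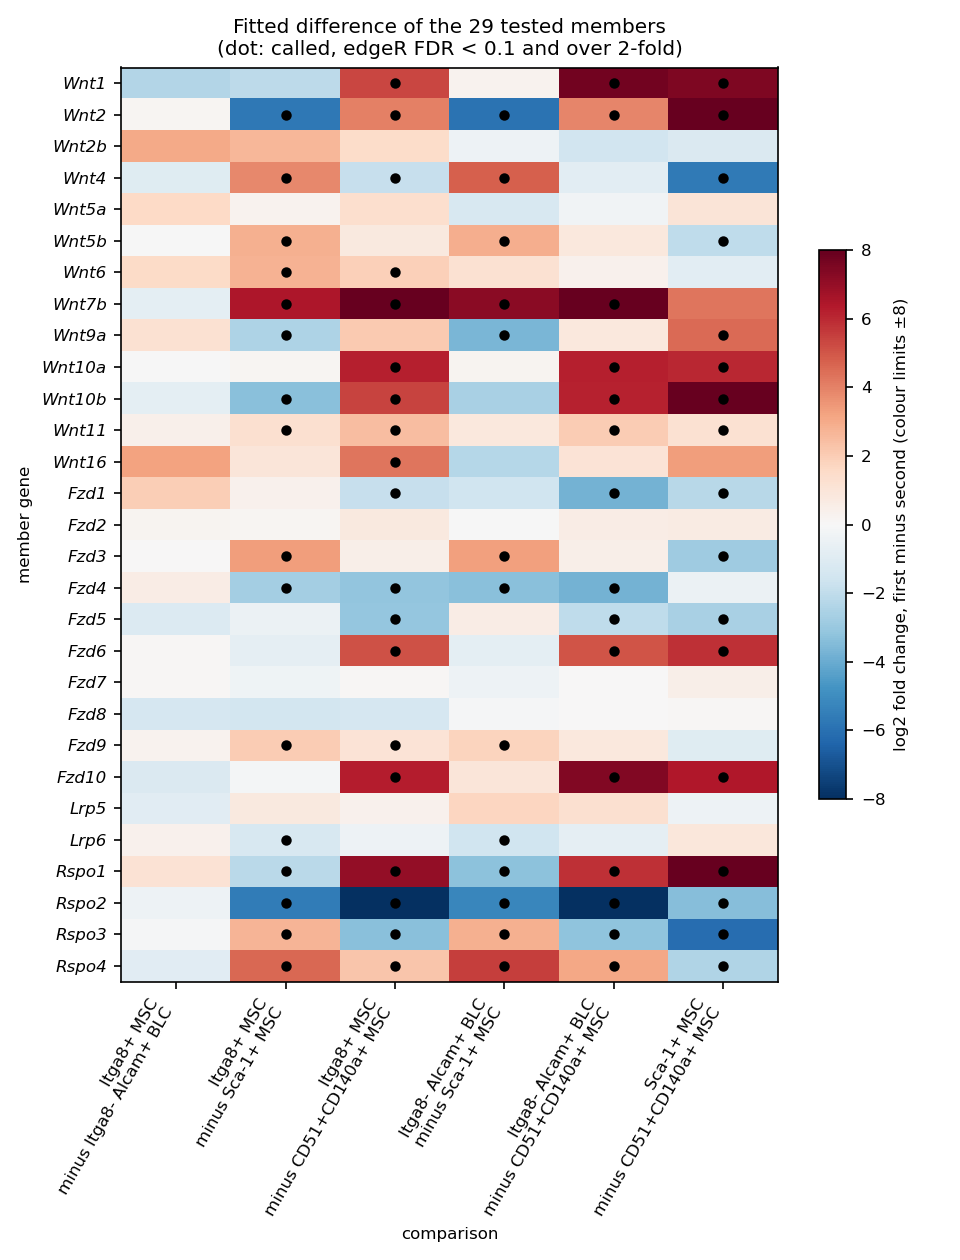
Heat map of the fitted log2 fold changes of the 29 tested members (rows) in the 6 pairwise comparisons (columns, first population minus second). Dots mark the calls, and the column for Itga8+ MSCs against Itga8- Alcam+ BLCs holds none.

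The sorting antigens were checked first. Itga8 transcripts were at 35.2 to 199 CPM in Itga8+ MSCs and 0.398 to 4.17 CPM in Itga8- Alcam+ BLCs, but also at 53.1 to 82.9 CPM in CD51+CD140a+ MSCs. Ly6a, which encodes Sca-1, was at 611 to 659 CPM in Sca-1+ MSCs and at no more than 35.7 CPM elsewhere. Alcam was at 1.29 to 5.04 CPM in Itga8+ MSCs and 3.83 to 5.82 CPM in Itga8- Alcam+ BLCs, against at most 0.221 CPM in Sca-1+ MSCs and 0.0644 CPM in CD51+CD140a+ MSCs. Pdgfra, which encodes CD140a, was at 682 to 867 CPM in CD51+CD140a+ MSCs but also at 734.5 to 1019 CPM in Sca-1+ MSCs, and at 5.35 to 148 CPM in the Alcam+ populations. Itgav, which encodes CD51, likewise overlapped between CD51+CD140a+ MSCs (121 to 195 CPM) and Sca-1+ MSCs (126 to 150.3 CPM), and was at 12.7 to 118 CPM in the Alcam+ populations. The summed level of 8 osteoblast markers was 32190 to 114500 CPM in Itga8- Alcam+ BLCs, and all 8 were higher there than in Itga8+ MSCs, where the sum was 686 to 7979 CPM. It was 15630 to 19490 CPM in Sca-1+ MSCs and 8255 to 17460 CPM in CD51+CD140a+ MSCs. Of the 8, Bglap, Alpl, Dmp1, Col1a1 and Sp7 were called higher in Itga8- Alcam+ BLCs than in CD51+CD140a+ MSCs, and Ibsp was called lower. The sum of 6 LepR+ stromal markers was 44720 to 61180 CPM in CD51+CD140a+ MSCs and at most 740 CPM in the others. The sum of 6 tendon fibroblast markers was 12900 to 23550 CPM in Itga8+ MSCs, 3788 to 6396 CPM in Itga8- Alcam+ BLCs and 6266 to 9352 CPM in Sca-1+ MSCs, whereas in CD51+CD140a+ MSCs it was 83.4 to 113 CPM with Scx and Kera at the floor. A list of 4 cartilage markers ranged from 12630 to 116500 CPM in Itga8+ MSCs and from 10680 to 70720 CPM in Itga8- Alcam+ BLCs, against at most 9821 CPM in the other populations. The sum of 7 myeloid and lymphoid markers was 2176 to 9484 CPM in Itga8+ MSCs and 3561 to 6164 CPM in Itga8- Alcam+ BLCs, against 834 to 1599 CPM and 942 to 1650 CPM in Sca-1+ and CD51+CD140a+ MSCs, with Cd3e at the floor in every population. The sum of 5 adventitial fibroblast markers was 2106 to 2593 CPM in Sca-1+ MSCs and at most 107 CPM in the others. Erythroid markers summed to 148.5 to 310.5 CPM in Itga8- Alcam+ BLCs, 108 to 217 CPM for Sca-1+ MSCs and 312 to 319 CPM for CD51+CD140a+ MSCs. Skeletal muscle markers, 5 genes, summed to 10.4 to 25.9 CPM in Itga8+ MSCs and 1.89 to 10.2 CPM for Itga8- Alcam+ BLCs, with at most 1.33 CPM elsewhere, and Myh1 and Myh4 were over the floor only in Itga8- Alcam+ BLCs, in 1 library each. Pericyte and smooth muscle markers summed to 19.4 to 67.5 CPM in CD51+CD140a+ MSCs and 123 to 577 CPM in the others. Glial markers summed to 20.3 to 39.4 CPM in Itga8- Alcam+ BLCs and at most 3.96 CPM elsewhere. Endothelial markers summed to 72.5 to 110 CPM in Sca-1+ MSCs, where Tek alone averaged 69.9 CPM, and at most 32.8 CPM elsewhere. Most of these lists also differed between populations compared below. Between the Alcam+ populations, all 8 osteoblast markers and 5 of the 6 tendon markers were called, against 0 of the 29 tested members. The part of the markers in the results below was not tested. Itga8+ MSC replicate 2 correlated least with its replicates, at r = 0.898 and 0.862 across genes, and had the lowest level of its group for 21 of the 29 tested members. Its sum of 5 erythroid markers was 1139 CPM, against 129 and 95.2 CPM in replicates 1 and 3, and its sum of myeloid and lymphoid markers was 9484 CPM, against 5473 and 2176 CPM. Its osteoblast markers summed to 686 CPM, against 6958 and 7979 CPM, and its cartilage markers to 12630 CPM, against 70560 and 116500 CPM. The part of these markers in the members' values of that library was not tested.

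Wnt11 was the leading ligand of 3 of the 4 populations. Scaled by transcript length (TPM), it made up 62.6 ± 4.67% (SD, n = 3) of all Wnt transcripts in Itga8+ MSCs, 51.6 ± 6.49% for Itga8- Alcam+ BLCs and 50.03 ± 0.469% for Sca-1+ MSCs. In CD51+CD140a+ MSCs Wnt4 took the largest share, 44.7 ± 7.36%, followed by Wnt5b at 27.1 ± 3.62% and Wnt11 at 23.9 ± 4.87%, although Wnt5b and Wnt11 changed places without length scaling (19.0 ± 2.84% and 26.1 ± 4.91% of Wnt CPM). In Sca-1+ MSCs Wnt9a and Wnt2 followed Wnt11, at 21.8 ± 2.80% and 14.1 ± 5.09%, or 19.8 ± 2.40% and 8.69 ± 3.20% of Wnt CPM. The summed Wnt level was 266 ± 95.1 TPM in Itga8+ MSCs, 202 ± 39.7 TPM for Itga8- Alcam+ BLCs, 151 ± 25.2 TPM for Sca-1+ MSCs, with 147 ± 27.6 TPM in CD51+CD140a+ MSCs. The share of each member is set out by family and population in the plot of family make-up.

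**Figure D2:**
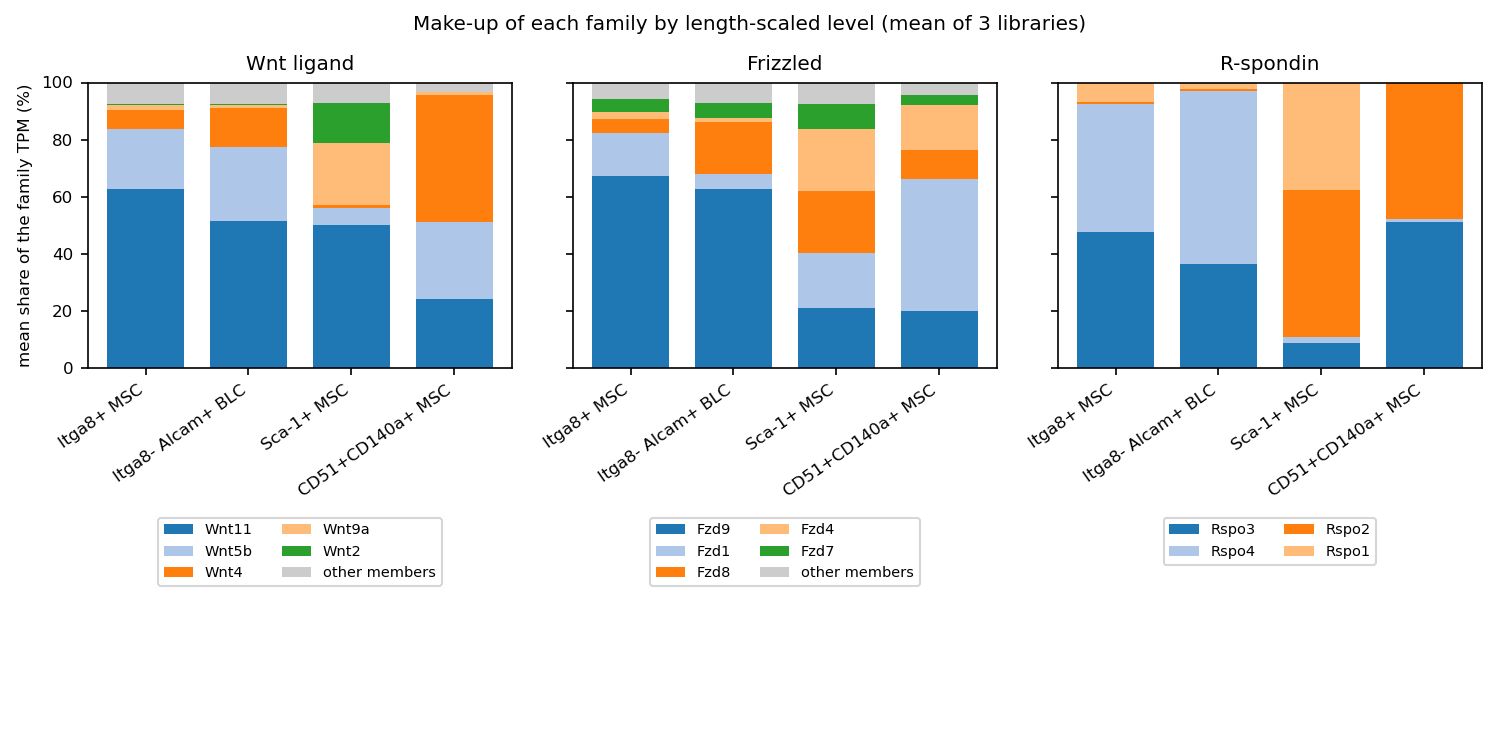
Stacked bars of the percentage of each family's summed TPM taken by each member, as the mean of 3 libraries in each population. Wnt11 and Fzd9 fill the largest part of the Alcam+ populations, and Wnt4, Fzd1, Rspo2 and Rspo3 that of CD51+CD140a+ MSCs.

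Wnt11, a ligand best known for β-catenin-independent signalling in cell movement, lies on chromosome 7 (98835112 to 98855195). It was at 220.0, 179 and 198 CPM in the Itga8+ MSC libraries, 177, 113 and 151.5 CPM in Itga8- Alcam+ BLCs, 88.9, 93.0 and 69.1 CPM in Sca-1+ MSCs, and 27.6, 40.0 and 40.1 CPM in CD51+CD140a+ MSCs. The 4 populations did not overlap in this order. The step from Itga8+ MSCs to Itga8- Alcam+ BLCs was not called (log2 fold change 0.44, SE 0.27, FDR = 0.602), and that from Itga8- Alcam+ BLCs to Sca-1+ MSCs fell short of the fold threshold (0.81, SE 0.27, FDR = 0.0495). Wnt11 was higher in Itga8+ than in Sca-1+ MSCs (1.25, SE 0.27, FDR = 0.0095) and in Sca-1+ than in CD51+CD140a+ MSCs (1.22, SE 0.27, FDR = 0.00754). Between the ends of the order, the log2 fold change was 2.47 (SE 0.28, FDR = 6.27e-05). The opposite-strand gene Gm8398 overlaps 8.80% of the exon bases of Wnt11, and reads of the pair cannot be told apart where strand is not used in counting.

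Wnt4, a ligand with roles in kidney and reproductive tract development, lies on chromosome 4 (137277489 to 137299726). Its level was 21.2, 23.3 and 15.6 CPM in Itga8+ MSCs, 33.3, 27.6 and 56.8 CPM in Itga8- Alcam+ BLCs, 1.22, 1.63 and 1.36 CPM in Sca-1+ MSCs, and 56.0, 102 and 53.1 CPM in CD51+CD140a+ MSCs. Sca-1+ MSCs stood below all 9 other libraries, and only Itga8- Alcam+ BLCs and CD51+CD140a+ MSCs overlapped. The log2 fold change of Sca-1+ MSCs against CD51+CD140a+ MSCs was -5.64 (SE 0.44, FDR = 4.24e-06), and Wnt4 was also lower in Itga8+ than in CD51+CD140a+ MSCs (-1.81, SE 0.36, FDR = 0.00319). It was higher in Itga8+ MSCs and Itga8- Alcam+ BLCs than in Sca-1+ MSCs by 3.83 (SE 0.41) and 4.80 (SE 0.42) on the log2 scale. The value for Itga8- Alcam+ BLCs against CD51+CD140a+ MSCs, -0.84 (FDR = 0.0928), passed the FDR but not the fold threshold, and was called without Itga8- Alcam+ BLC replicate 3 (-1.21, FDR = 0.0348) or CD51+CD140a+ MSC replicate 3 (-1.01, FDR = 0.094) and, with all libraries, when scaled by library totals alone (-1.21, FDR = 0.027).

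Wnt5b, which regulates chondrocyte growth through β-catenin-independent signalling, followed Wnt4 in being low in Sca-1+ MSCs. It was at 63.7, 26.1 and 45.2 CPM in Itga8+ MSCs, 44.3, 50.2 and 45.0 CPM in Itga8- Alcam+ BLCs, 4.87, 6.41 and 7.68 CPM in Sca-1+ MSCs, and 26.0, 29.5 and 22.6 CPM in CD51+CD140a+ MSCs. No Sca-1+ MSC library reached the lowest of the others. On the log2 scale, Itga8+ MSCs and Itga8- Alcam+ BLCs exceeded Sca-1+ MSCs by 2.83 (SE 0.35, FDR = 0.000388) and 2.88 (SE 0.35, FDR = 0.000229), and the difference of Sca-1+ MSCs from CD51+CD140a+ MSCs was -2.04 (SE 0.34, FDR = 0.0012). Without Itga8+ MSC replicate 2, Wnt5b was also called higher in Itga8+ than in CD51+CD140a+ MSCs (1.09, FDR = 0.0104). The gene spans chromosome 6 from 119432531 to 119544347. The related Wnt5a ranged from 1.20 to 20.4 CPM over the 12 libraries, was over the floor in all of them, and was not called in any comparison by edgeR with TMM scaling and all libraries. It was called higher in Itga8+ than in CD51+CD140a+ MSCs without Itga8+ MSC replicate 2 (1.72, FDR = 0.0592) or CD51+CD140a+ MSC replicate 3 (1.92, FDR = 0.0834), and by DESeq2 with all of them (1.36, FDR = 0.0842). It was called lower in Itga8- Alcam+ BLCs than in Sca-1+ MSCs when scaled by library totals alone (-1.54, FDR = 0.0946) or fitted on these 2 populations only (-1.33, FDR = 0.0281). The opposite-strand Gm2670 overlaps 4.58% of the exon bases of Wnt5a.

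Wnt7b, a ligand that promotes bone formation, was seen almost only in the Alcam+ populations. Its level was 10.7, 2.54 and 15.4 CPM in Itga8+ MSCs and 19.4, 17.4 and 11.7 CPM in Itga8- Alcam+ BLCs, with 0.305 CPM in 1 Sca-1+ MSC library and no count in the other two or in CD51+CD140a+ MSCs. Both Alcam+ populations were higher than Sca-1+ MSCs, by 6.48 (SE 1.09, FDR = 0.00374) and 7.24 (SE 1.12, FDR = 0.00169) on the log2 scale. Against the floor of 3 counts per library in CD51+CD140a+ MSCs, Wnt7b was at least 108-fold higher in Itga8+ MSCs and at least 183-fold higher in Itga8- Alcam+ BLCs. DESeq2 also called Wnt7b higher in Sca-1+ than in CD51+CD140a+ MSCs (FDR = 0.0301), from 6 counts in 1 library, which edgeR did not. The gene lies on chromosome 15 (85535437 to 85582473), and the opposite-strand AU022754 overlaps 6.62% of its exon bases.

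Wnt2, which signals through β-catenin in lung and other tissues, was instead highest in Sca-1+ MSCs. Sca-1+ MSCs held it at 18.8, 14.0 and 6.84 CPM, whereas Itga8+ MSCs were at 0.247, 0.26 and 0.231 CPM, Itga8- Alcam+ BLCs at 0.448, 0.139 and 0.06 CPM, and CD51+CD140a+ MSCs at 0, 0 and 0.0322 CPM. Every Sca-1+ MSC library was above all others. The log2 fold changes of Itga8+ MSCs and Itga8- Alcam+ BLCs against Sca-1+ MSCs were -5.71 (SE 0.74, FDR = 0.000483) and -5.88 (SE 0.75, FDR = 0.000288). CD51+CD140a+ MSCs had 1 Wnt2 count in all, so the ratio of Sca-1+ MSCs to them is known only as 1321-fold with an exact 95% interval of 236 to 52240. Wnt2 was also called higher in Itga8+ MSCs (25.3-fold, 3.85 to 1069) and Itga8- Alcam+ BLCs (22.9-fold, 3.43 to 971) than in CD51+CD140a+ MSCs, from 14 and 13 counts against 1. Of the 13 counts, 9 came from Itga8- Alcam+ BLC replicate 1, without which the ratio was 10.7-fold (1.06 to 528). Without CD51+CD140a+ MSC replicate 3, which held the single count, Wnt2 was at least 157-fold higher in Sca-1+ MSCs, at least 2.93-fold higher in Itga8+ MSCs and at least 2.57-fold higher in Itga8- Alcam+ BLCs than the floor.

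Wnt9a, a ligand of developing joints, was likewise highest in Sca-1+ MSCs. It was at 27.1, 33.0 and 27.0 CPM in Sca-1+ MSCs, against 2.77, 1.20 and 11.8 CPM in Itga8+ MSCs, 0.448, 5.28 and 1.08 CPM in Itga8- Alcam+ BLCs, and 0.765, 1.00 and 2.00 CPM in CD51+CD140a+ MSCs. Again no other library reached Sca-1+ MSCs. The log2 fold change of Sca-1+ MSCs over CD51+CD140a+ MSCs was 4.53 (SE 0.98, FDR = 0.00659), and that of Itga8- Alcam+ BLCs against Sca-1+ MSCs was -3.66 (SE 0.94, FDR = 0.0174). The call against Itga8+ MSCs (-2.46, SE 0.89, FDR = 0.0821) did not hold when Itga8+ MSC replicate 1 or 2 or any Sca-1+ MSC library was left out, with an FDR of 0.146 to 0.19. Against CD51+CD140a+ MSCs it was not called in Itga8+ MSCs by edgeR with TMM scaling and all libraries, but was called higher there without Itga8+ MSC replicate 1 (2.37, FDR = 0.0954) or 2 (2.56, FDR = 0.0436). With all libraries it was called higher there by DESeq2 (2.09, FDR = 0.0447), with either of 2 other scalings (FDR = 0.0937 and 0.0963) and with either of 2 other filters (FDR = 0.0836 and 0.0977). Wnt9a stands 16.2 kb from Wnt3a on chromosome 11, in opposite orientation, and Wnt3a had no count.

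Wnt10b, a ligand that favours osteoblasts over adipocytes, was at 3.76, 2.59 and 0.843 CPM in Sca-1+ MSCs, 0.198, 0.364 and 0.116 CPM in Itga8+ MSCs and 0, 0.232 and 0.959 CPM in Itga8- Alcam+ BLCs, with no count in CD51+CD140a+ MSCs. Sca-1+ MSCs overlapped only with Itga8- Alcam+ BLCs, through replicate 3 of each. Relative to the floor in CD51+CD140a+ MSCs, Wnt10b was at least 27.2-fold higher in Sca-1+ MSCs, at least 2.56-fold higher in Itga8+ MSCs and at least 4.50-fold higher in Itga8- Alcam+ BLCs. The last bound rested on replicate 3, without which it was 1.31-fold, and the calls for Itga8+ MSCs and Itga8- Alcam+ BLCs were lost with limma-trend (FDR = 0.118 and 0.106). The call between Itga8+ MSCs and Sca-1+ MSCs (-3.37, SE 1.20, FDR = 0.0859) was lost with any of their 6 libraries left out, at an FDR of 0.105 to 0.223. Without Itga8- Alcam+ BLC replicate 3, Wnt10b was also called lower in Itga8- Alcam+ BLCs than in Sca-1+ MSCs (-4.29, FDR = 0.0646), and with all libraries it was so called by DESeq2 (-2.61, FDR = 0.0891), by limma-trend (-2.79, FDR = 0.026) and with library totals alone (-2.89, FDR = 0.0976).

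The neighbouring Wnt1, an inducer of bone formation that lies 11.7 kb from Wnt10b on chromosome 15, was likewise without a count in CD51+CD140a+ MSCs. It was at 0.198, 0.0519 and 0.404 CPM in Itga8+ MSCs, 0.946, 0.742 and 1.74 CPM in Itga8- Alcam+ BLCs and 0.941, 0.0509 and 1.83 CPM in Sca-1+ MSCs. Sca-1+ MSCs spanned the range of both Alcam+ populations, which did not overlap with each other but were not called different (-2.37, SE 1.15, FDR = 0.461). Wnt1 was called higher in each of these populations than in CD51+CD140a+ MSCs, by at least 2.47-fold in Itga8+ MSCs, at least 12.9-fold in Itga8- Alcam+ BLCs and at least 10.7-fold in Sca-1+ MSCs. Without replicate 3 of the population concerned the first of these bounds was 1.42-fold and the last 5.62-fold, and the call for Itga8+ MSCs was lost with limma-trend (FDR = 0.16).

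Wnt6 and Wnt10a lie 6.19 kb apart on the same strand of chromosome 1. Wnt6, a ligand of epithelial and limb development, was at 1.34, 5.14 and 5.03 CPM in Itga8+ MSCs, 0.797, 0.834 and 2.34 CPM in Itga8- Alcam+ BLCs, 0.498, 0.967 and 0.234 CPM in Sca-1+ MSCs, and 1.64, 0.917 and 0.483 CPM in CD51+CD140a+ MSCs. Only the Sca-1+ MSCs did not overlap with Itga8+ MSCs. Wnt6 was called higher in Itga8+ than in Sca-1+ MSCs (2.75, SE 0.78, FDR = 0.0331) and than in CD51+CD140a+ MSCs (1.91, SE 0.74, FDR = 0.0697). The former call was lost without Sca-1+ MSC replicate 1 or 3 (FDR = 0.108 to 0.118) and the latter without Itga8+ MSC replicate 2 or 3 or CD51+CD140a+ MSC replicate 2 or 3 (FDR = 0.131 to 0.194). Wnt10a, known for tooth and hair development, stayed at or below 0.839 CPM, had no count in CD51+CD140a+ MSCs and was called at least 4.47-, 4.67- and 3.98-fold higher in Itga8+ MSCs, Itga8- Alcam+ BLCs and Sca-1+ MSCs. Itga8+ MSC replicate 1 also had no count, and Itga8- Alcam+ BLC replicate 2 had 1. The bound for Itga8+ MSCs was 2.29-fold without their replicate 2, and that for Itga8- Alcam+ BLCs was 2.24-fold without their replicate 3. The call for Itga8+ MSCs was lost with limma-trend and in the fit of these populations only (FDR = 0.101 in each), and that for Sca-1+ MSCs without any 1 of the CD51+CD140a+ MSC libraries (FDR = 0.104 to 0.11).

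Wnt16, a ligand tied to cortical bone thickness, was at 0.792, 2.96 and 0.809 CPM in Itga8+ MSCs, 0.249, 0 and 0.24 CPM in Itga8- Alcam+ BLCs, 0.277, 1.42 and 0.656 CPM in Sca-1+ MSCs, and 0, 0 and 0.226 CPM in CD51+CD140a+ MSCs. Itga8+ MSCs did not overlap with CD51+CD140a+ MSCs or Itga8- Alcam+ BLCs, and its single call was for Itga8+ MSCs over CD51+CD140a+ MSCs (4.29, SE 1.43, FDR = 0.0408). This call was lost without Itga8+ MSC replicate 2 (FDR = 0.12) or CD51+CD140a+ MSC replicate 1 (FDR = 0.108). Without CD51+CD140a+ MSC replicate 3, the only one with Wnt16 counts, it was also called higher in Itga8- Alcam+ BLCs, at least 1.94-fold over the floor (FDR = 0.0866), and in Sca-1+ MSCs, at least 9.36-fold (FDR = 0.0294). With all libraries, DESeq2 (3.45, FDR = 0.0594) and limma-trend (2.48, FDR = 0.0492) called it higher in Sca-1+ than in CD51+CD140a+ MSCs. Wnt2b, with 15 counts or fewer in any library, was not called.

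**Figure D3:**
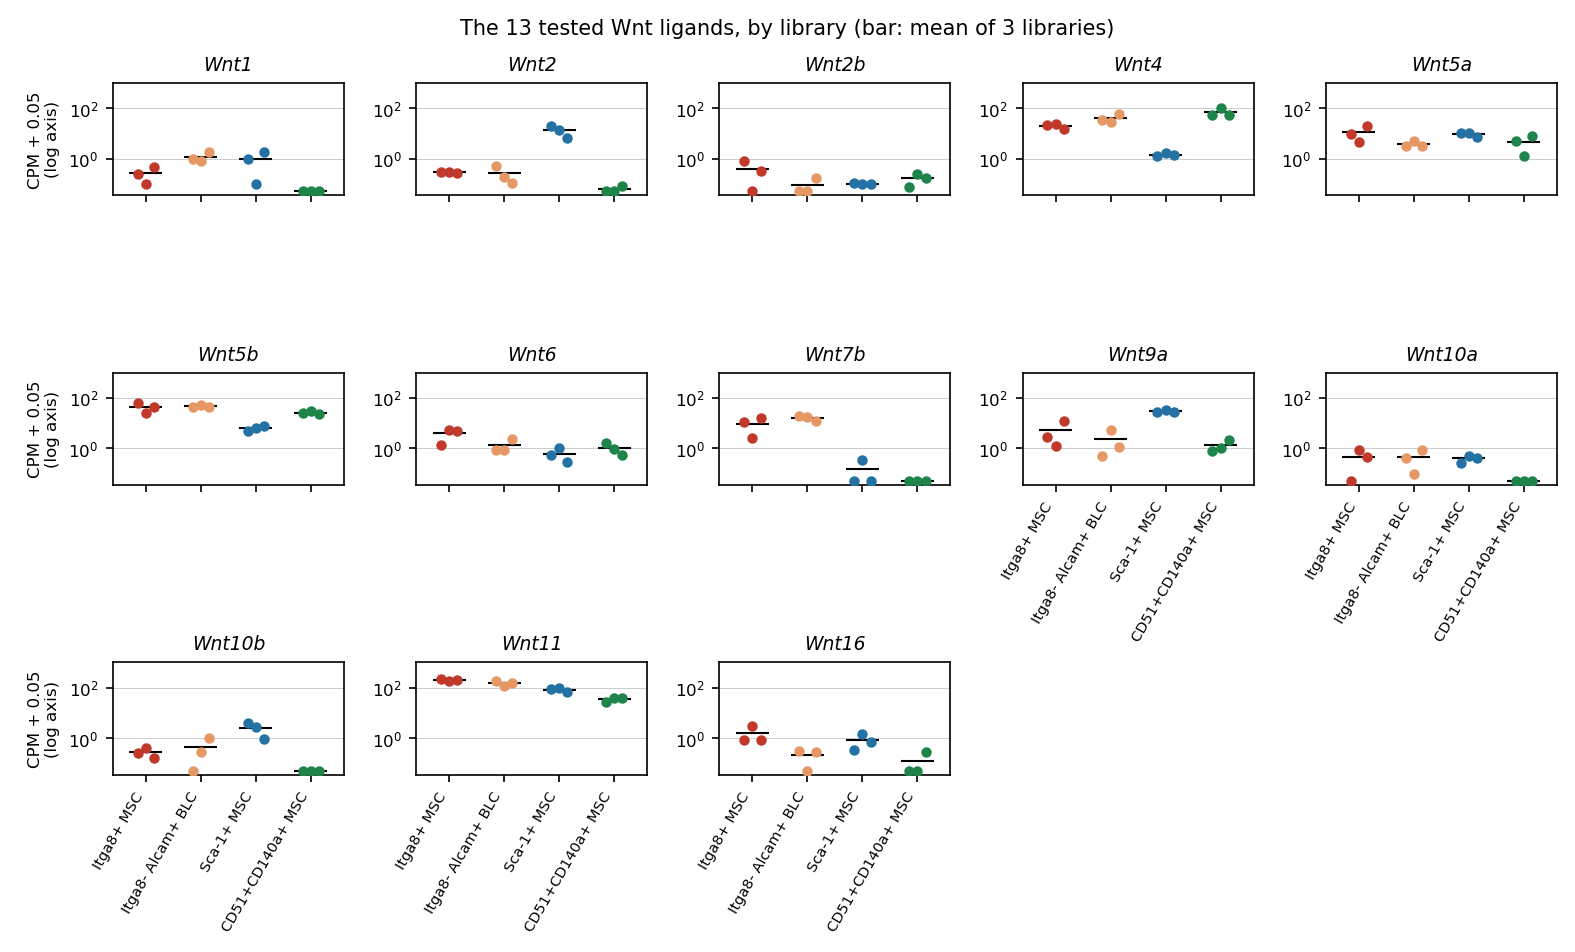
Level of each tested Wnt ligand in the 12 libraries, as CPM plus 0.05 on a log axis, with 1 point for each library, a bar at the mean of the 3 libraries of a population, and libraries at 0 drawn at 0.05. Wnt11 steps down from Itga8+ MSCs to CD51+CD140a+ MSCs, Wnt7b sits in the Alcam+ populations, and Wnt2 and Wnt9a are highest in Sca-1+ MSCs.

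Frizzled transcripts were most abundant in CD51+CD140a+ MSCs, where the 10 genes summed to 504 ± 38.2 TPM (SD, n = 3), against 314 ± 186 TPM in Itga8+ MSCs, 228 ± 101 TPM for Itga8- Alcam+ BLCs and 239 ± 19.6 TPM for Sca-1+ MSCs. Fzd9 made up 67.1 ± 17.6% of the family in Itga8+ MSCs and 62.7 ± 11.6% of it in Itga8- Alcam+ BLCs. Fzd1 led in CD51+CD140a+ MSCs with 46.0 ± 7.55%. In Sca-1+ MSCs, Fzd8, Fzd4, Fzd9 and Fzd1 took 21.8 ± 2.46%, 21.7 ± 0.399%, 20.8 ± 3.30% and 19.3 ± 2.08%, an even split that did not hold without length scaling, where Fzd4 made up 30.5 ± 0.897% of Frizzled CPM, Fzd8 27.1 ± 2.52%, Fzd1 16.9 ± 1.65% and Fzd9 9.97 ± 1.78%. Shares of Fzd9 depend on the length scaling, since it is the shortest of the Frizzleds, and without it Fzd9 made up 50.1 ± 17.7% of Frizzled CPM in Itga8+ MSCs, with 42.1 ± 12% for Itga8- Alcam+ BLCs.

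Fzd1, a receptor that acts with Lrp6 in β-catenin signalling, was at 268, 216 and 237 CPM in CD51+CD140a+ MSCs, 52.6, 7.12 and 141 CPM in Itga8+ MSCs, 13.4, 31.3 and 7.61 CPM in Itga8- Alcam+ BLCs, and 42.8, 63.0 and 51.6 CPM in Sca-1+ MSCs. All CD51+CD140a+ MSC libraries were above every other library. Against CD51+CD140a+ MSCs the log2 fold change was -3.78 (SE 0.84, FDR = 0.00542) for Itga8- Alcam+ BLCs, -2.20 (SE 0.78, FDR = 0.079) for Sca-1+ MSCs and -1.84 (SE 0.77, FDR = 0.0911) for Itga8+ MSCs. The call for Sca-1+ MSCs was lost with any of the 6 libraries of that comparison left out (FDR = 0.127 to 0.212). That for Itga8+ MSCs was lost in 5 of 6 such cases (FDR = 0.106 to 0.196), holding only without Itga8+ MSC replicate 3. Without Itga8- Alcam+ BLC replicate 2, Fzd1 was also called lower in Itga8- Alcam+ BLCs than in Sca-1+ MSCs (-2.36, FDR = 0.0746), and with all libraries it was so called by DESeq2 (-1.61, FDR = 0.0926), with library totals alone (-1.84, FDR = 0.0978) and in the fit of these populations only (-1.62, FDR = 0.0407). The gene lies on chromosome 5 (4753839 to 4758035).

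Fzd4, which also binds Norrin and is known for retinal vessel growth, separated the populations by Alcam. It was at 88.2, 101 and 91.8 CPM in Sca-1+ MSCs and 124, 134 and 137 CPM in CD51+CD140a+ MSCs, but 8.31, 5.04 and 30.1 CPM in Itga8+ MSCs and 9.76, 15.4 and 3.00 CPM in Itga8- Alcam+ BLCs. The Alcam+ libraries were all below the others. The log2 fold changes against Sca-1+ MSCs were -2.69 (SE 0.65, FDR = 0.0167) for Itga8+ MSCs and -3.32 (SE 0.67, FDR = 0.00504) for Itga8- Alcam+ BLCs, and those against CD51+CD140a+ MSCs were -3.19 (SE 0.67, FDR = 0.00404) and -3.81 (SE 0.69, FDR = 0.00148). Sca-1+ and CD51+CD140a+ MSCs did not overlap but were not called different (-0.49, SE 0.61, FDR = 0.699). Fzd4 is on chromosome 7 (89404355 to 89413134).

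Fzd5, a receptor of eye and gut development, was at 20.3, 20.2 and 34.2 CPM in CD51+CD140a+ MSCs, 2.38, 1.71 and 4.62 CPM in Itga8+ MSCs, 4.88, 5.33 and 8.45 CPM in Itga8- Alcam+ BLCs, and 3.15, 5.49 and 3.61 CPM in Sca-1+ MSCs. As for Fzd1, every CD51+CD140a+ MSC library was highest. The log2 fold change was -3.10 (SE 0.46, FDR = 0.000426) for Itga8+ MSCs, -2.0 (SE 0.44, FDR = 0.00526) for Itga8- Alcam+ BLCs and -2.61 (SE 0.45, FDR = 0.00149) for Sca-1+ MSCs, each against CD51+CD140a+ MSCs. The opposite-strand Gm38058 overlaps 17.8% of the exon bases of Fzd5.

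Fzd6, which orients hair follicles through planar polarity signalling, ran the other way. It had no count in CD51+CD140a+ MSC replicates 1 and 2 and 0.387 CPM in replicate 3, while it was at 4.45, 1.66 and 7.34 CPM in Itga8+ MSCs, 3.09, 6.77 and 2.88 CPM in Itga8- Alcam+ BLCs, and 7.30, 8.29 and 6.14 CPM in Sca-1+ MSCs. No CD51+CD140a+ MSC library reached the others. On the log2 scale Fzd6 was higher than in CD51+CD140a+ MSCs by 5.12 (SE 1.1, FDR = 0.00484) in Itga8+ MSCs, 5.05 (SE 1.1, FDR = 0.00496) for Itga8- Alcam+ BLCs and 5.82 (SE 1.13, FDR = 0.0032) for Sca-1+ MSCs. Gm26704 overlaps 3.16% of its exon bases from the opposite strand.

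Fzd9, a receptor with a known role in osteoblasts and the most abundant Frizzled of the Alcam+ populations, was at 176, 74.8 and 126 CPM in Itga8+ MSCs, 138, 106 and 71.3 CPM in Itga8- Alcam+ BLCs, 28.3, 28.1 and 35 CPM in Sca-1+ MSCs, and 40.4, 104 and 33.1 CPM in CD51+CD140a+ MSCs. Sca-1+ MSCs were below both Alcam+ populations with no overlap, and the log2 fold change over them was 2.05 (SE 0.47, FDR = 0.0125) for Itga8+ MSCs and 1.79 (SE 0.46, FDR = 0.0181) for Itga8- Alcam+ BLCs. CD51+CD140a+ MSC replicate 2 lay within the range of the Alcam+ populations. The call for Itga8+ MSCs over CD51+CD140a+ MSCs (1.08, SE 0.46, FDR = 0.0915) was lost without Itga8+ MSC replicate 1 or 3 or CD51+CD140a+ MSC replicate 1 or 3 (FDR = 0.114 to 0.265), and without CD51+CD140a+ MSC replicate 2 Fzd9 was also called higher in Itga8- Alcam+ BLCs (1.52, FDR = 0.0247).

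Fzd3, a receptor of axon guidance and planar polarity, was lowest in Sca-1+ MSCs, at 0.387, 0.509 and 1.17 CPM. It was at 4.80, 9.77 and 6.36 CPM in Itga8+ MSCs, 7.32, 5.70 and 7.67 CPM in Itga8- Alcam+ BLCs, and 5.19, 2.72 and 6.93 CPM in CD51+CD140a+ MSCs. The last 3 populations overlapped, and none overlapped with Sca-1+ MSCs. The log2 fold changes were 3.32 (SE 0.54, FDR = 0.00178) and 3.30 (SE 0.54, FDR = 0.00132) for Itga8+ MSCs and Itga8- Alcam+ BLCs over Sca-1+ MSCs, and -2.82 (SE 0.53, FDR = 0.00245) for Sca-1+ MSCs against CD51+CD140a+ MSCs. Wnt4, Wnt5b, Fzd3, Rspo3 and Rspo4 are the members that were called lower in Sca-1+ MSCs than in each of the other 3 populations, as were 1.86% of all genes.

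Of the remaining Frizzleds, Fzd10 was low throughout, at most 1.39 CPM, and had no count in CD51+CD140a+ MSCs. It was called at least 4.69-, 10.4- and 5.29-fold higher in Itga8+ MSCs, Itga8- Alcam+ BLCs and Sca-1+ MSCs than the floor there, although 1 Itga8+ MSC library and 1 Sca-1+ MSC library also had no count. The first bound was 2.62-fold without Itga8+ MSC replicate 2 and the last 2.60-fold without Sca-1+ MSC replicate 1, and with limma-trend both of these calls were lost (FDR = 0.136 and 0.182). The call for Sca-1+ MSCs was lost without Sca-1+ MSC replicate 1 or any 1 of the CD51+CD140a+ MSC libraries (FDR = 0.119 to 0.147). Fzd2 ranged from 5.30 to 13.5 CPM, Fzd7 from 4.42 to 35.2 CPM and Fzd8 from 5.45 to 127 CPM over the 12 libraries, and none of these was called by edgeR with TMM scaling and all libraries. Fzd2 was called higher in Itga8+ than in CD51+CD140a+ MSCs without Itga8+ MSC replicate 2 (1.13, FDR = 0.0148). Fzd8 was called lower in Itga8+ than in Sca-1+ MSCs (-2.30, FDR = 0.0265) and CD51+CD140a+ MSCs (-2.14, FDR = 0.0235) when Itga8+ MSC replicate 3 was left out. With all libraries, both calls were made by DESeq2 (-1.45, FDR = 0.0744 and -1.30, FDR = 0.0909) and limma-trend (-1.98, FDR = 0.056 and -1.87, FDR = 0.049), and the call against CD51+CD140a+ MSCs also with library totals alone (-1.44, FDR = 0.0863).

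**Figure D4:**
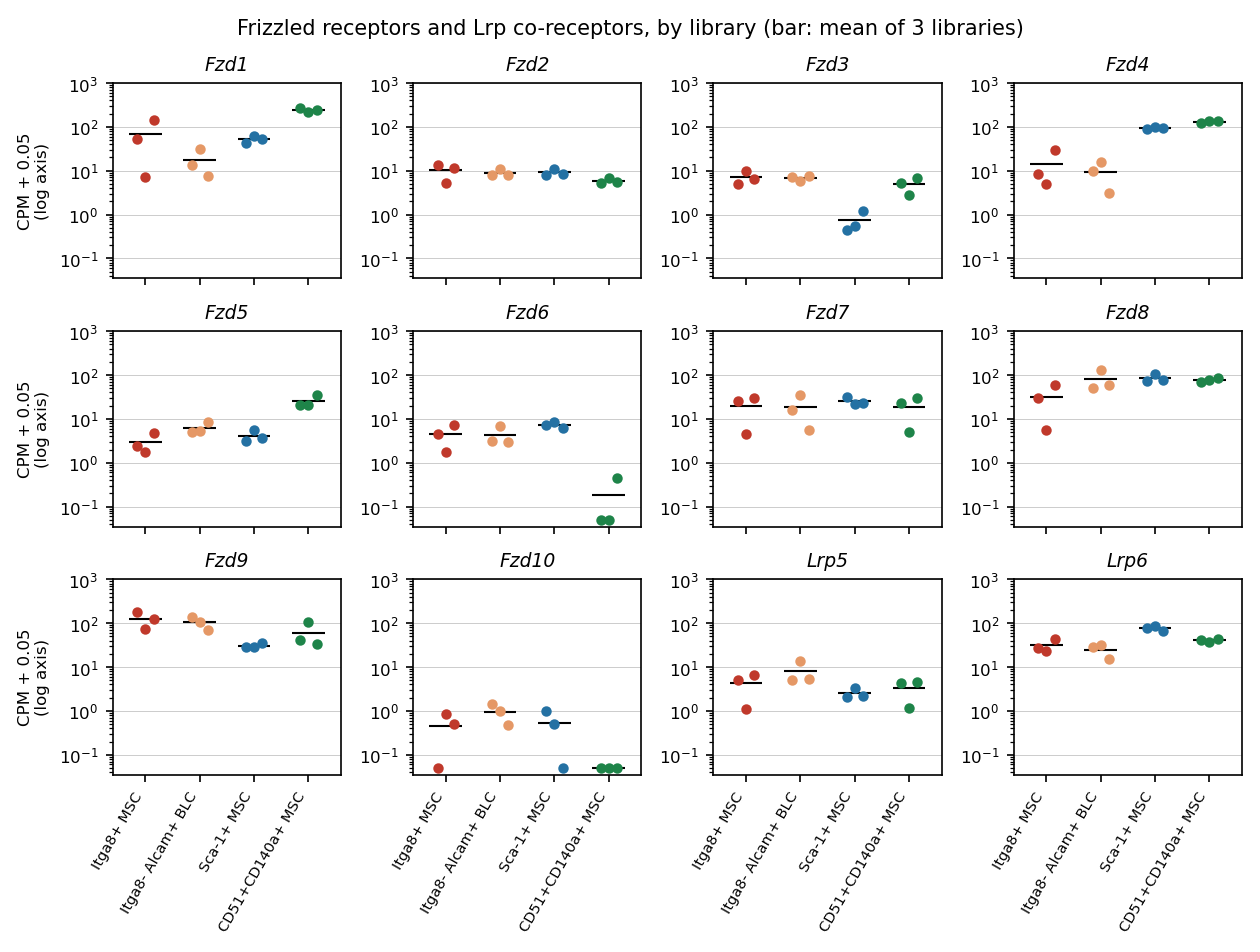
Level of the Frizzled receptors and of Lrp5 and Lrp6 in the 12 libraries, as CPM plus 0.05 on a log axis, with 1 point for each library, a bar at the mean of 3 libraries, and libraries at 0 drawn at 0.05. Fzd1 and Fzd5 are highest and Fzd6 lowest in CD51+CD140a+ MSCs, and Fzd4 splits the Alcam+ populations from the others.

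Lrp6, the co-receptor that is phosphorylated on ligand binding, exceeded Lrp5 in every population. It made up 85.3 ± 7.77% of the summed TPM of the pair in Itga8+ MSCs, 69.7 ± 9.37% for Itga8- Alcam+ BLCs, 95.7 ± 0.685% for Sca-1+ MSCs, with 90.2 ± 5.12% in CD51+CD140a+ MSCs (SD, n = 3). Its level was 75.9, 87.0 and 66.3 CPM in Sca-1+ MSCs, 26.7, 23.2 and 44.0 CPM in Itga8+ MSCs, 28.3, 31.4 and 14.9 CPM in Itga8- Alcam+ BLCs, and 40.9, 37.8 and 43.1 CPM in CD51+CD140a+ MSCs. Sca-1+ MSCs stood above the other 9 libraries. Against them the log2 fold change was -1.29 (SE 0.34, FDR = 0.024) for Itga8+ MSCs and -1.62 (SE 0.34, FDR = 0.00622) for Itga8- Alcam+ BLCs, whereas the difference from CD51+CD140a+ MSCs, 0.91 (SE 0.33, FDR = 0.0874), stayed under the fold threshold. With library totals alone Lrp6 was also called lower in Itga8- Alcam+ BLCs than in CD51+CD140a+ MSCs (-1.05, FDR = 0.0342). Lrp5, whose loss lowers bone mass, ranged from 1.04 to 13.6 CPM and was not called by edgeR in the fit of all libraries. It was called higher in Itga8- Alcam+ BLCs than in Sca-1+ MSCs by DESeq2 (1.68, FDR = 0.0555) and in the fit of only these populations (1.67, FDR = 0.0352).

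The R-spondins that led differed between the populations. Rspo3 and Rspo4 made up 47.5 ± 5.79% and 44.7 ± 5.43% of R-spondin TPM in Itga8+ MSCs (SD, n = 3), and 36.4 ± 4.06% and 60.7 ± 3.22% in Itga8- Alcam+ BLCs. Rspo2 and Rspo1 made up 51.6 ± 7.26% and 37.6 ± 4.62% in Sca-1+ MSCs, or 71.4 ± 6.18% and 19.9 ± 3.53% of R-spondin CPM. In CD51+CD140a+ MSCs, Rspo3 took 51.2 ± 1.73% and Rspo2 47.8 ± 1.01%, an order that turned without length scaling (39.1 ± 1.45% and 60.3 ± 1.03% of R-spondin CPM), and the family summed to 194 ± 32.8 TPM, against 18.2 ± 8.58 TPM in Itga8+ MSCs, 21.5 ± 6.50 TPM for Itga8- Alcam+ BLCs and 15.5 ± 1.74 TPM for Sca-1+ MSCs. All 4 genes were called in 5 of the 6 comparisons, the exception being Itga8+ MSCs against Itga8- Alcam+ BLCs. In each of these 5, which share libraries, 20.5% to 35.6% of all genes were called in either direction. The share of all genes called in all 5 was not computed.

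Rspo2, required for limb and lung development, lies on chromosome 15 (43020794 to 43170826). It was at 123, 102 and 127 CPM in CD51+CD140a+ MSCs and 10.3, 11.4 and 10.9 CPM in Sca-1+ MSCs, but 0.0989, 0 and 0.578 CPM in Itga8+ MSCs and 0, 0.834 and 0 CPM in Itga8- Alcam+ BLCs. CD51+CD140a+ MSCs, Sca-1+ MSCs and the Alcam+ populations formed 3 levels with no overlap. The log2 fold change of Sca-1+ MSCs against CD51+CD140a+ MSCs was -3.43 (SE 0.91, FDR = 0.0205), those of Itga8+ MSCs and Itga8- Alcam+ BLCs against Sca-1+ MSCs were -5.61 (SE 1.1, FDR = 0.00566) and -5.19 (SE 1.06, FDR = 0.00531), and those against CD51+CD140a+ MSCs were -9.04 (SE 1.23, FDR = 0.000218) and -8.62 (SE 1.19, FDR = 0.000245).

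Rspo3, which is needed for vessel development in the embryo, was at 84.7, 64.8 and 78.8 CPM in CD51+CD140a+ MSCs. It was at 8.56, 5.61 and 8.09 CPM in Itga8+ MSCs, 9.01, 7.14 and 7.85 CPM in Itga8- Alcam+ BLCs, and 0.83, 0.814 and 1.73 CPM in Sca-1+ MSCs. The Alcam+ populations overlapped with each other and stood between the other 2 populations, in the reverse order to Rspo2 for Sca-1+ MSCs. The log2 fold changes were -6.07 (SE 0.41, FDR = 2.2e-06) for Sca-1+ MSCs, -3.36 (SE 0.36, FDR = 3.86e-05) for Itga8+ MSCs and -3.25 (SE 0.35, FDR = 4.5e-05) for Itga8- Alcam+ BLCs, each against CD51+CD140a+ MSCs. Itga8+ MSCs and Itga8- Alcam+ BLCs were higher than Sca-1+ MSCs by 2.71 (SE 0.36, FDR = 0.000527) and 2.82 (SE 0.36, FDR = 0.000298). The opposite-strand Gm48159 overlaps 13.1% of the exon bases of Rspo3, which is on chromosome 10 (29452416 to 29535867).

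Rspo4, known for nail formation, was at 6.88, 3.06 and 6.93 CPM in Itga8+ MSCs and 11.7, 10.7 and 8.51 CPM in Itga8- Alcam+ BLCs, against 0.387, 0.102 and 0.187 CPM in Sca-1+ MSCs and 0.437, 0.573 and 2.58 CPM in CD51+CD140a+ MSCs. The Alcam+ populations were above the others with no overlap. Itga8- Alcam+ BLCs also lay above Itga8+ MSCs without a call (-0.88, SE 0.63, FDR = 0.69). On the log2 scale Rspo4 was higher than in Sca-1+ MSCs by 4.62 (SE 0.78, FDR = 0.00227) in Itga8+ MSCs and 5.50 (SE 0.80, FDR = 0.000679) for Itga8- Alcam+ BLCs, and higher than in CD51+CD140a+ MSCs by 2.23 (SE 0.66, FDR = 0.0253) and 3.11 (SE 0.68, FDR = 0.00513). The call between Sca-1+ and CD51+CD140a+ MSCs (-2.39, SE 0.75, FDR = 0.0466) was lost without Sca-1+ MSC replicate 2 or 3 or CD51+CD140a+ MSC replicate 3, at an FDR of 0.147 to 0.273.

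Rspo1, which directs ovarian differentiation, was at 2.82, 2.44 and 3.94 CPM in Sca-1+ MSCs, 0.989, 0.468 and 0.636 CPM in Itga8+ MSCs and 0.349, 0.278 and 0.3 CPM in Itga8- Alcam+ BLCs, with no count in CD51+CD140a+ MSCs. The 4 populations did not overlap in this order, although the step between the Alcam+ populations was not called (1.16, SE 0.59, FDR = 0.488). Against the floor in CD51+CD140a+ MSCs, Rspo1 was at least 34.8-fold higher in Sca-1+ MSCs, at least 7.91-fold higher in Itga8+ MSCs and at least 3.50-fold higher in Itga8- Alcam+ BLCs. Relative to Sca-1+ MSCs, its log2 fold change was -2.13 (SE 0.57, FDR = 0.0316) for Itga8+ MSCs and -3.29 (SE 0.60, FDR = 0.00446) for Itga8- Alcam+ BLCs, and the former call was lost without Sca-1+ MSC replicate 3 (-1.91, FDR = 0.122). Every fold for Rspo1 rests on at most 84 counts in a library.

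**Figure D5:**
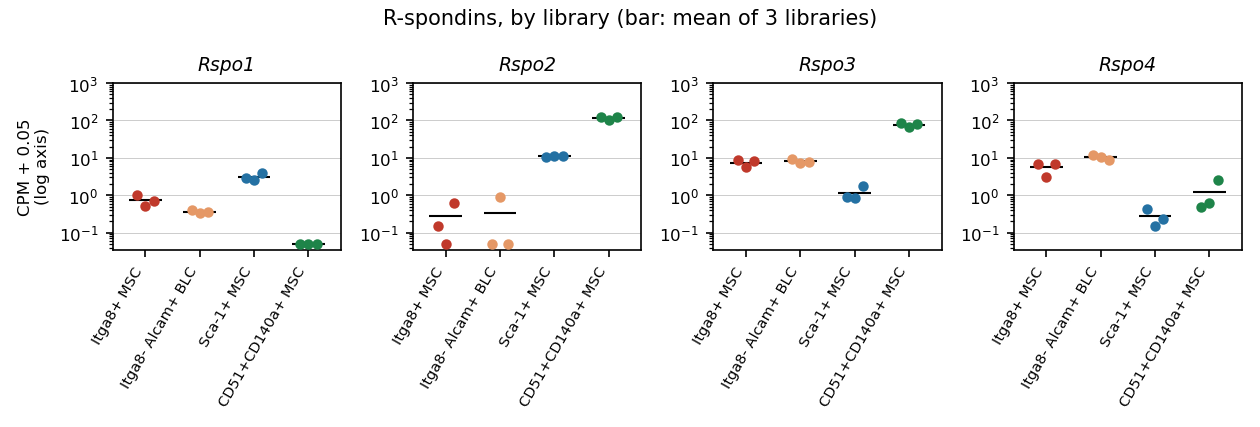
Level of the 4 R-spondins in the 12 libraries, as CPM plus 0.05 on a log axis, with 1 point for each library, a bar at the mean of 3 libraries, and libraries at 0 drawn at 0.05. Rspo2 and Rspo3 are highest in CD51+CD140a+ MSCs, Rspo4 in the Alcam+ populations and Rspo1 in Sca-1+ MSCs.

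Genes that handle or receive these ligands were followed through 6 fixed lists, of which 47 genes were tested. In the order of comparisons used above, 0, 9, 5, 10, 8 and 4 of them were higher in the first population and 2, 4, 13, 5, 13 and 11 in the second, against 1.66%, 12.9%, 21.2%, 14.5%, 20.4% and 11.2% of all genes higher in the first and 2.16%, 8.89%, 14.3%, 11.9%, 14.9% and 9.3% in the second. Tcf7 and Ccn4, the latter named after its values were seen, were the genes called between the Alcam+ populations, both higher in Itga8- Alcam+ BLCs. Ccn4 was at 626 ± 345 CPM (SD, n = 3) there, 125 ± 36.6 CPM in Itga8+ MSCs, 20.1 ± 5.84 CPM for Sca-1+ MSCs and 17.2 ± 4.33 CPM in CD51+CD140a+ MSCs. Notum, Lgr5, Znrf3 and Rnf43 stand in more than 1 list. The median log2 fold change over these genes was -0.15, -0.05, -0.31, 0.13, -0.30 and -0.34, against 0.08, 0.16, 0.18, 0.12, 0.09 and -0.00 over all genes.

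Of the 3 genes of Wnt secretion and inactivation, Notum, the enzyme that removes the lipid from Wnt proteins, was at 106 ± 31.9 CPM (SD, n = 3) in Itga8+ MSCs, 164 ± 33.5 CPM for Itga8- Alcam+ BLCs, 7.46 ± 2.11 CPM for Sca-1+ MSCs, with 0.443 ± 0.425 CPM in CD51+CD140a+ MSCs. It was called in every comparison but that between the Alcam+ populations, with a log2 fold change of 7.88 (SE 0.90, FDR = 6.32e-05) for Itga8+ MSCs over CD51+CD140a+ MSCs. Porcn, which attaches the lipid, was at 43.0 ± 2.53 CPM in CD51+CD140a+ MSCs and 6.55 to 9.71 CPM on average in the others, and was lower in each of them than in CD51+CD140a+ MSCs (-2.15, -2.55 and -2.71, with FDR of at most 0.00114). Wls, which carries Wnt proteins to the cell surface, was at 128 ± 7.47 to 343 ± 26.2 CPM and was called once, for Itga8- Alcam+ BLCs against CD51+CD140a+ MSCs (-1.43, SE 0.23, FDR = 0.000795).

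Among 5 R-spondin receptors and ubiquitin ligases, Lgr5 and Lgr6 were distributed in opposite directions. Lgr6 was at 16.7 ± 13.4 CPM in Itga8+ MSCs, 16.9 ± 6.82 CPM for Itga8- Alcam+ BLCs and 26.9 ± 1.58 CPM for Sca-1+ MSCs, but at 0.0573 ± 0.0993 CPM in CD51+CD140a+ MSCs, and was called higher in each of the former. Lgr5 was at 10.1 ± 4.09 CPM in CD51+CD140a+ MSCs and at most 1.30 CPM on average elsewhere, with log2 fold changes of -2.96 (SE 0.89, FDR = 0.0277), -5.63 (SE 1.05, FDR = 0.00188) and -3.07 (SE 0.90, FDR = 0.0339) for Itga8+ MSCs, Itga8- Alcam+ BLCs and Sca-1+ MSCs against them. Znrf3 was higher in CD51+CD140a+ MSCs, at 11.5 ± 1.42 CPM, than in Itga8+ MSCs and Sca-1+ MSCs, at 5.42 ± 2.31 and 3.72 ± 1.47 CPM.

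Of 5 receptors that bind Wnts or pair with Frizzleds without Lrp5 or Lrp6, Musk, a kinase best known from the neuromuscular junction, was at 17.0 ± 1.14 CPM in Sca-1+ MSCs and at most 1.01 CPM on average in the other populations. Sca-1+ MSCs were higher than each of these, by 4.41 (SE 1.09, FDR = 0.0142) over CD51+CD140a+ MSCs. The summed level of 5 skeletal muscle markers in Sca-1+ MSCs, lower than in both Alcam+ populations, was 0.102 to 1.33 CPM, with Myh1 and Myh4 at the floor. The part of muscle transcripts in the values of Musk was not tested. Ptk7, a receptor of planar polarity, was lower in Sca-1+ MSCs, at 4.09 ± 1.98 CPM, than in each of the other 3 populations, at 27.9 ± 19.2 to 78.9 ± 7.76 CPM. Ror1, a Wnt5a receptor, was lower in Itga8- Alcam+ BLCs, at 11.8 ± 11.2 CPM, than in Sca-1+ and CD51+CD140a+ MSCs.

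Of the 13 intracellular transducers, 0%, 0%, 7.69%, 7.69%, 15.4% and 0% were called in the 6 comparisons, against 3.82%, 21.7%, 35.6%, 26.4%, 35.3% and 20.5% of all genes called in either direction. Ctnnb1, which encodes β-catenin, was at 512 ± 277 CPM in Itga8- Alcam+ BLCs and was higher there than in Sca-1+ MSCs, at 242 ± 27.4 CPM (1.08, SE 0.43, FDR = 0.0968), and than in CD51+CD140a+ MSCs, at 214 ± 35.3 CPM (1.26, SE 0.44, FDR = 0.0466). Gsk3b and Amer1, members of the β-catenin destruction machinery, were each called once, both higher in CD51+CD140a+ MSCs, by comparison with Itga8+ MSCs and Itga8- Alcam+ BLCs respectively.

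Of 12 nuclear factors, 0, 2, 1, 2, 2 and 0 were higher in the first population and 1, 3, 6, 2, 6 and 3 in the second, so that 8.33%, 41.7%, 58.3%, 33.3%, 66.7% and 25% were called, beside the 3.82%, 21.7%, 35.6%, 26.4%, 35.3% and 20.5% of all genes. Lef1 was at 93.4 ± 32.3 CPM in Itga8+ MSCs and 68.8 ± 11.9 CPM for Itga8- Alcam+ BLCs, against 3.21 ± 1.20 CPM in Sca-1+ MSCs, with 1.89 ± 1.32 CPM in CD51+CD140a+ MSCs, and both Alcam+ populations were higher than both others. Tcf7 was at 67.1 ± 11.1 CPM in Itga8- Alcam+ BLCs and 16.3 ± 5.13 CPM in Itga8+ MSCs, a log2 fold change of -2.05 (SE 0.47, FDR = 0.0415). Tcf7l1, which more often represses its targets, was at 66.8 ± 9.57 CPM in CD51+CD140a+ MSCs and lower in each of the other 3 populations, at 7.70 ± 3.48 to 18.8 ± 4.09 CPM. The part of osteoblast, tendon, cartilage and LepR+ stromal markers in these directions, and in those of the members, was not tested.

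Genes listed as targets and feedback regulators did not move together. Ccnd1, a cell-cycle gene, was at 72.3 ± 55.9 CPM in Itga8+ MSCs, 44.9 ± 21.3 CPM for Itga8- Alcam+ BLCs, 7.46 ± 0.339 CPM for Sca-1+ MSCs, with 1.76 ± 0.583 CPM in CD51+CD140a+ MSCs, and was called in all comparisons but that between the Alcam+ populations. The sum of 4 other cell-cycle genes, Mki67, Top2a, Ccnb1 and Cdk1, was 308.7 to 385 CPM in Itga8+ MSCs, 110.5 to 189 CPM for Itga8- Alcam+ BLCs, 83.8 to 101 CPM for Sca-1+ MSCs and 117 to 202 CPM in CD51+CD140a+ MSCs, and its part in the values of Ccnd1 was not tested. Tnfrsf19, a receptor of the tumour necrosis factor family, was at 724 ± 114 CPM in CD51+CD140a+ MSCs, against 19.0 ± 21.1 CPM in Itga8+ MSCs, 44.7 ± 22.1 CPM for Itga8- Alcam+ BLCs and 3.21 ± 1.59 CPM for Sca-1+ MSCs. Axin2, the feedback gene most often read as a sign of β-catenin signalling and named here after its values were seen, stayed between 0.225 ± 0.0465 and 0.845 ± 0.458 CPM and was not called. Of 13 tested genes of this list, 0, 5, 3, 6, 4 and 2 were higher in the first population and 1, 0, 4, 1, 3 and 6 in the second, which makes 7.69%, 38.5%, 53.8%, 53.8%, 53.8% and 61.5% called where all genes had 3.82%, 21.7%, 35.6%, 26.4%, 35.3% and 20.5%.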

How the data were processed

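RNA-seq was measured in 12 libraries of 2000 sorted cells, prepared with SMART-Seq v4 and Nextera XT kits. The deposited files hold raw counts per Ensembl gene, 1 file for each library, which the authors made by alignment to mm10. The paper's methods name TopHat with Bowtie2, whereas the submitters' processing notes list FastQC 0.11.7, Trimmomatic 0.38, HISAT2 2.1.0, SAMtools 1.9 and featureCounts 1.6.3 without saying which step each served. The annotation release and the use of strand are not given in the sources used here. Aligner, multi-mapping rule and strand can each change the count of a gene that overlaps or resembles another.

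Groups came from the labels. Identifiers were matched to symbols through GENCODE vM21 (GRCm38), which lacked 259 of 49585 identifiers. Counts were scaled with TMM, and the 18648 genes that reached 0.5 CPM in 1 library or more were tested with edgeR 4.0.16 (R 4.3.3) by the quasi-likelihood test, in 1 fit of all 12 libraries. A gene was called at a Benjamini-Hochberg FDR under 0.1 over all genes tested and a fold change above 2. TPM used the exon union of each gene. Totals were 17580677 to 31332475 counts, so that 3 counts, the floor, stood for 0.082 to 0.18 CPM. A population at 0 was compared through the floor in each library, and one with 1 to 3 counts through the ratio of summed counts with an exact 95% interval. Intervals and floors cover counting error only. Alternatives were DESeq2 1.42.0, limma-trend (limma 3.58.1), other scalings, filters and thresholds, fits of only the populations compared, a replicate block and leaving out each library.

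Members and gene lists were chosen with earlier results of these data known. Values for each library are given for members called at least once with at least 1 CPM on average in 1 population, other tested members are given by range, and from each pathway list up to 3 genes called in the most comparisons are named, ties going to the largest fold change. Promoter sequences came from the RefSeq table of GRCm38, in which 23 of the 35 members had a window.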

Additional observations from a re-analysis of the deposited data

How the results depend on the processing

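Over 80 calls of a member in a comparison, the alternatives other than leaving out a library kept 766 of their results on the same side of the thresholds, lost 25 and did not test 9 under their filters, leaving out 1 library kept 435 and lost 45, and no called member changed direction under either. In the order of comparisons used in the report, members called numbered 0, 16, 19, 13, 15 and 17. With 1 library left out they ranged from 0 to 1, 12 to 16, 16 to 20, 13 to 14, 15 to 17 and 14 to 15. Itga8+ MSCs against Itga8- Alcam+ BLCs gave 1 call, Fzd1, without Itga8+ MSC replicate 2. Fitting only the 2 populations compared gave 12 members for Itga8+ MSCs against CD51+CD140a+ MSCs, where Fzd1, Fzd9, Wnt6 and Wnt10a were lost. Wnt1, Wnt2 and Wnt10b there, Rspo1 and Wnt2 for Itga8- Alcam+ BLCs and Wnt10a for Sca-1+ MSCs against the same population fell under the filter in such fits and were not tested, nor was Wnt10a against that population with at least 10 counts required in at least 3 libraries. Fzd9 between Itga8+ and CD51+CD140a+ MSCs was also lost with library totals alone (FDR = 0.141) and with every gene of at least 1 count (FDR = 0.108). DESeq2 called 0, 17, 22, 16, 15 and 19 members and limma-trend 0, 17, 16, 14, 14 and 17. Calls that limma-trend lost were all against CD51+CD140a+ MSCs, namely Fzd10, Wnt1, Wnt10a and Wnt10b for Itga8+ MSCs, Wnt10b for Itga8- Alcam+ BLCs and Fzd10 for Sca-1+ MSCs (FDR = 0.101 to 0.182). The replicate block gave 0, 15, 16, 13, 15 and 15 members, losing Wnt10b between Itga8+ MSCs and Sca-1+ MSCs, Fzd1, Fzd9 and Wnt6 between Itga8+ and CD51+CD140a+ MSCs, and Fzd1 and Fzd10 between Sca-1+ and CD51+CD140a+ MSCs. Same-numbered libraries had deviations from their group means correlated at -0.58 to 0.20, which cannot show whether the numbers pair the samples. Calls of the other pathway genes numbered 84, with 78 under the block and 73 to 89 with 1 library left out. Where the cause of a lost call is not its smaller number of samples or genes, the cause was not tested. Depth limits members at the floor, for which only lower bounds could be given.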
